A study of Mus musculus with 8 samples.

Results

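The genes described here are 36 listed genes of sugar metabolism and of the hypoxia-inducible factor (HIF) pathway: glucose transporters, the enzymes of glycolysis, the pentose phosphate pathway and glycogen, the genes that handle pyruvate and lactate, Hif1a, and a small set of HIF regulators and targets. They were chosen by name, with earlier results of these data known, and all 36 were among the 24421 genes of the count table. Bone marrow neutrophils of C57BL/6 mice, 8 weeks of age and female according to the methods, were profiled by RNA sequencing in 4 groups of 2 libraries. WT cells and Padi4 KO cells, which carry a deletion of Padi4 exon 1, were each left unstimulated or incubated for 6 h with R848 at 1 µg/ml, an agonist of the endosomal receptor TLR7. No Cre driver or cell-type restriction of the deletion is named in the methods. The titles give 0 h for the unstimulated libraries, whereas the treatment protocol gives a culture of 6 h, so an effect of culture time cannot be told apart from that of R848 if the titles hold. The cells were isolated magnetically with a neutrophil kit, and the methods describe them as CD11b+ Ly6G+ at high purity. The methods state that samples were run in duplicate, and neither they nor the labels say that the 2 libraries of a group came from separate mice, so the p-values measure the spread between these libraries, which may be technical.

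Glycolysis splits glucose into pyruvate and yields ATP without oxygen, and mature neutrophils, which have few mitochondria, draw most of their energy from it. The pentose phosphate pathway branches off at glucose 6-phosphate and gives NADPH, the electron donor of the phagocyte NADPH oxidase, while glycogen is an internal store of glucose units. HIF-1α, the product of Hif1a, is a transcription factor that is hydroxylated by prolyl hydroxylases and degraded when oxygen is plentiful, and its known targets include glucose transporters, glycolytic enzymes and the lactate exporter MCT4. Inflammatory signals are known to raise Hif1a transcripts in myeloid cells as well.

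The libraries held between 562446 and 1177972 counts on genes, with a mean of 620594.5 in WT and 1032734.5 in Padi4 KO, a ratio of 1.66. A floor of 3 counts corresponded to 2.55 to 5.33 CPM, the unit of counts after scaling all libraries to the same size, which covers counting error only, so Egln1, Egln3, Bnip3, P4ha1 and Pdk1 were measured with few reads. Padi4 had 590 and 527 counts in unstimulated WT, 166 and 234 in WT after R848, 40 and 54 in unstimulated Padi4 KO and 34 and 21 in Padi4 KO after R848, in the order of the labels. Neutrophil markers (12 of 13 in the table, none at 0) summed to 163255–168946 CPM, relative to library totals, for unstimulated WT and 133206–134726 CPM in unstimulated Padi4 KO. After R848 the sums were 154126–166730 CPM in WT and 125372–126062 CPM in Padi4 KO. As these are bulk samples, fewer cells of a type and less RNA per cell cannot be told apart.

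The promoters of 4 members are shown because these genes carry the main contrasts of the values that follow. Hif1a and Slc16a3 rose after R848 in both genotypes, and by less in Padi4 KO. Ldha fell in both, and Gpi1 fell in both but by less in Padi4 KO. Each window holds 250 bases before and 50 bases after a RefSeq transcription start on GRCm38.p6, read 5′ to 3′ on the strand of the gene. Capitals mark ACGTG, the core of the HIF-binding element, and the related GCGTG, each searched on both strands, so that the reverse complements CACGT and CACGC are in capitals too and CACGTG counts on both strands. The windows lie at chr12:73907617-73907916 on the plus strand for Hif1a, chr11:120948817-120949116 on the plus strand for Slc16a3, chr7:46845554-46845853 on the plus strand for Ldha and chr7:34230287-34230586 on the minus strand for Gpi1.
Hif1a: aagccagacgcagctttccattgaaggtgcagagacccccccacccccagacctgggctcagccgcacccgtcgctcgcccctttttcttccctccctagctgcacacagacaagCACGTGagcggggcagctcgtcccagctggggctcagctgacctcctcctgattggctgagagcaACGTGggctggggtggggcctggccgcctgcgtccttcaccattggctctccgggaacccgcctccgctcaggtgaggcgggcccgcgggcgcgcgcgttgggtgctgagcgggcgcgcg
Slc16a3: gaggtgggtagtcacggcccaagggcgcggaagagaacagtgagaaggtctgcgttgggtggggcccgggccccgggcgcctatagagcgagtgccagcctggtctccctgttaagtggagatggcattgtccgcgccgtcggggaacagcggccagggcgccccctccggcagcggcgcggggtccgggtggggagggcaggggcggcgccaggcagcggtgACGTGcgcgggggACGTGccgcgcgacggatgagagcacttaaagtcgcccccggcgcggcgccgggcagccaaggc
Ldha: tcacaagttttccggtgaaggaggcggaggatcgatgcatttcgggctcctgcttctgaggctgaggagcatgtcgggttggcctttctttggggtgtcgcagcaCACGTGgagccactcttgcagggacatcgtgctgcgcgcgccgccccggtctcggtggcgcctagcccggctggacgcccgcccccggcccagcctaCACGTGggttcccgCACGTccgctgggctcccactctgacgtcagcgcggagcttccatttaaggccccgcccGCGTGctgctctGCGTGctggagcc
Gpi1: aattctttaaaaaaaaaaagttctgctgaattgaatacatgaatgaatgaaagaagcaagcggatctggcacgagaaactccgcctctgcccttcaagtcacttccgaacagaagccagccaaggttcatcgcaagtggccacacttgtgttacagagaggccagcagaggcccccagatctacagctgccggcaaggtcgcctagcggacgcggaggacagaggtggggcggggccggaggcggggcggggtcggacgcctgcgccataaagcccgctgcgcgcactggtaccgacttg

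The Hif1a window held 3 matches to ACGTG and the Slc16a3 window 2, whereas the Ldha window held 5 matches to ACGTG and 2 to GCGTG. A second RefSeq window of Ldha, at chr7:46846832-46847131 and not printed, held 0 matches to ACGTG and 2 to GCGTG. The Gpi1 window held none of these letters. Promoter windows were matched for 34 of the 36 members, all except Slc2a3 and Ndrg1. Of these 34, 21 (61.8%) held ACGTG and 31 (91.2%) held ACGTG or GCGTG, with 1.32 windows per gene. Among 9368 tested genes with a window the shares were 29.3% and 66.9%, with 1.27 windows per gene, and over all 32851 windows they were 19.6% and 43.8%. ACGTG was present in 5 of the 9 members that rose in WT, in 9 of the 16 that fell and have a window and in 7 of the 8 that were not called. A match is a description of the letters only.

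Of the 36 genes, 35 had reads in 2 or more libraries and could be tested. Together they took 2.02% of the gene counts in unstimulated WT, 1.54% in WT after R848, 1.91% in unstimulated Padi4 KO and 1.58% in Padi4 KO after R848 (means of 2 libraries). Per kilobase of exon, Taldo1 had the highest level of the members in all 4 groups, at 606 ± 24.0 CPM per kb (SD, n = 2) in unstimulated WT. Pkm, Gapdh, Gpi1, Pygl and Aldoa followed, from 477 ± 39.4 down to 296 ± 5.84 CPM per kb, and Gpi1 at 302 ± 1.44, Pygl at 300.3 ± 2.02 and Aldoa were close to each other. After R848 in WT the order changed. Aldoa moved from rank 6 to rank 2 at 507 ± 20.5 CPM per kb, Gpi1 from rank 4 to rank 12 at 131 ± 5.71 CPM per kb and Hif1a from rank 30 to rank 17 at 70.6 ± 8.15 CPM per kb. Eno1, the enolase of most cells, was listed at 0 in all 8 libraries and could not be tested. As every cell uses an enolase, this 0 cannot be read as absence of the transcript. Of its 50-base exon windows, 26.0% also occur in transcripts of other genes.

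**Figure D1:**
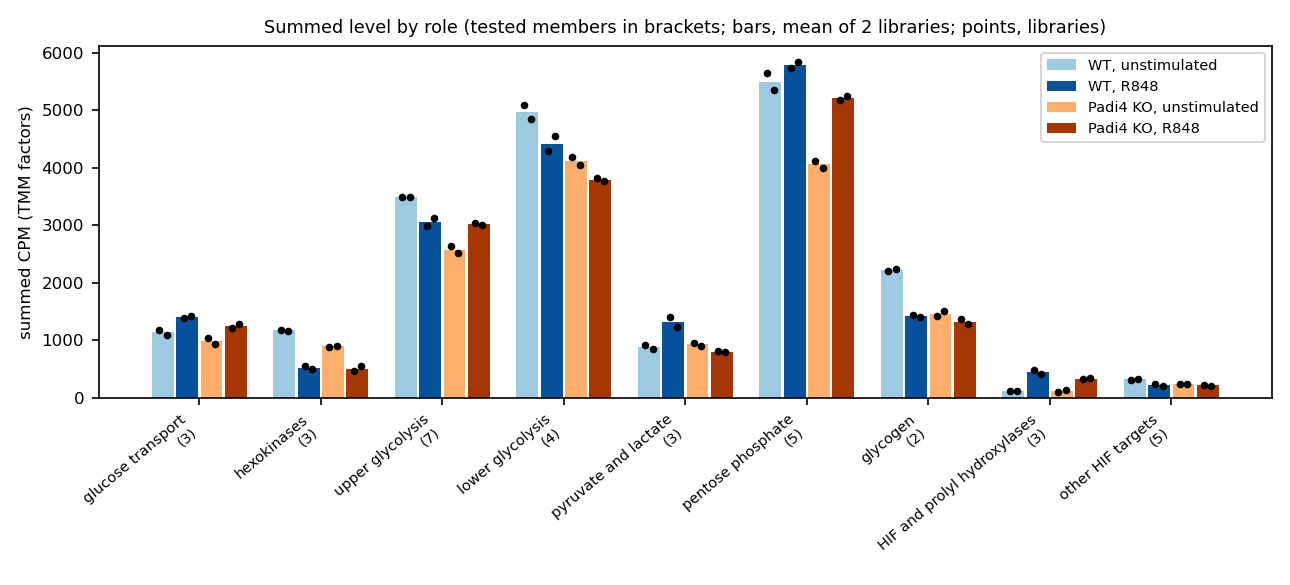
Summed CPM with TMM factors (y axis) of the tested members of each role (x axis, number of members in brackets) in the 4 groups, where bars are means of 2 libraries and points are the libraries. The hexokinase sum fell from 1178 to 524 CPM in WT and from 900 to 506 CPM in Padi4 KO, while the sum of Hif1a and the prolyl hydroxylases rose from 112 to 447 CPM and from 117 to 332 CPM.

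**Figure D2:**
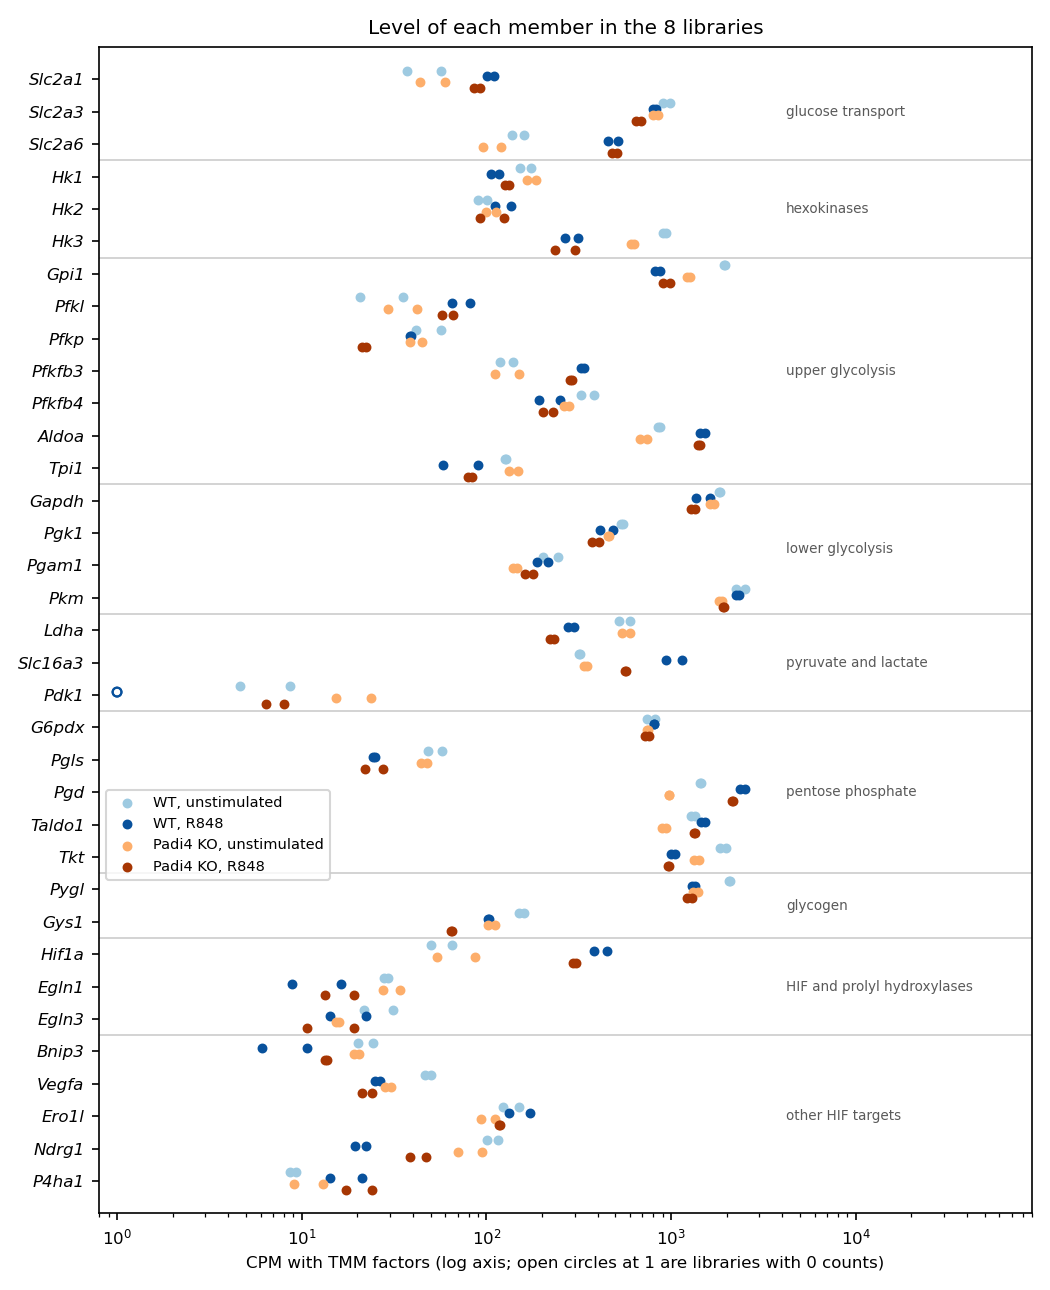
CPM with TMM factors (x axis, log scale) of the 35 tested members (y axis, ordered by role) in each of the 8 libraries, with 1 point per library coloured by group and open circles for the 2 libraries in which Pdk1 had 0 counts. The 2 libraries of a group lie close together for most members, and in WT the gaps between unstimulated and R848 libraries are wide for Pdk1, Hif1a, Ndrg1, Slc2a6, Slc16a3 and Hk3.

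The first comparison asked how R848 changed these genes in each genotype. In WT, 9 members rose and 18 fell at a false discovery rate below 0.1, of 35 tested, against 13.5% higher and 16% lower among all 12254 genes tested (edgeR's quasi-likelihood test, adjusted after Benjamini and Hochberg). Among genes with at least 10 counts on average, where 34 members were found, 22.1% of all 6912 genes were higher and 23.2% lower, against 9 and 17 members. In Padi4 KO, 10 members rose and 16 fell, against 19.2% and 15.9% of all genes tested, and against 30.5% and 20.4% of those with at least 10 counts, where 10 and 15 members were called. With a change of more than 2-fold added to the rule, 6 members rose and 7 fell in WT, where 7.17% and 10.8% of all genes were called, and 4 rose and 3 fell in Padi4 KO, where 8.07% and 8.84% were. The members were thus split in direction. With DESeq2, 9 members fell in WT in place of 18, and the calls it ended were those of Slc2a3, Hk1, Gapdh, Pgk1, Pgls, Gys1, Egln1, Bnip3 and Vegfa. Without the first or the second WT R848 library 11 fell. In Padi4 KO, DESeq2 ended the calls of Pfkl, Pdk1, Egln1 and P4ha1.

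Sums of markers of other cells moved with R848 too. The summed CPM of 12 monocyte and macrophage markers, relative to library totals, went from 1540–1651 to 3417–3555 in WT and from 2300–2314 to 3657–3755 in Padi4 KO. The single markers were split, with 4 called higher and 4 lower in WT, and 5 higher and 4 lower in Padi4 KO. That of 18 erythroid markers went from 139–145 to 22.4–32.8 in WT and from 1458–1485 to 1607–1683 in Padi4 KO. The sum of 10 stromal and endothelial markers went from 247–310 to 136–139 and from 610–771 to 93.5–98.5. That of 6 megakaryocyte and platelet markers went from 90.7–98.3 to 13.46–18.03 and from 178–202 to 35.7–41.4. In both genotypes the sums of 9 B and plasma cell markers and of 9 T and NK cell markers were lower in every R848 library than in every unstimulated library. The T and NK cell sums lay at 4.24–40.6 CPM, with Cd3e, Cd8a, Klrb1c and Gzma at 0. Of 14 erythroid markers tested, 7 were called lower and 0 higher in WT, and 1 lower and 6 higher in Padi4 KO. In each genotype 3 of 7 stromal and endothelial markers were lower and 1 higher, and 3 of 6 megakaryocyte and platelet markers were lower. Of the tested B and plasma cell markers 1 of 6 was lower in each genotype, and of the T and NK cell markers 1 of 3. Their part in the responses was not tested.

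The same members were called higher in both genotypes in 9 cases, namely Slc2a1, Slc2a6, Pfkl, Pfkfb3, Aldoa, Slc16a3, Pgd, Taldo1 and Hif1a. Another 15 were called lower in both, and 0 in opposite directions. Among genes with at least 10 counts, 19.1% were called higher in both genotypes, 14.1% lower in both and 0.622% in opposite directions. The shares over all genes tested were 11.4%, 9.12% and 0.367%. Members with at least 10 counts had a median log2 fold change of -0.28 for WT and of -0.16 for Padi4 KO, next to -0.074 and 0.077 over all such genes. Scaling by library size alone moved the latter medians to -0.38 and -0.30, whereas the median of the members minus that of all genes was -0.21 and -0.24 with TMM factors, with relative log expression factors and with library size alone. Relative to that median, 14 members lay above and 20 below in WT, and 12 above and 22 below in Padi4 KO, leaving out Pdk1.

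**Figure D3:**
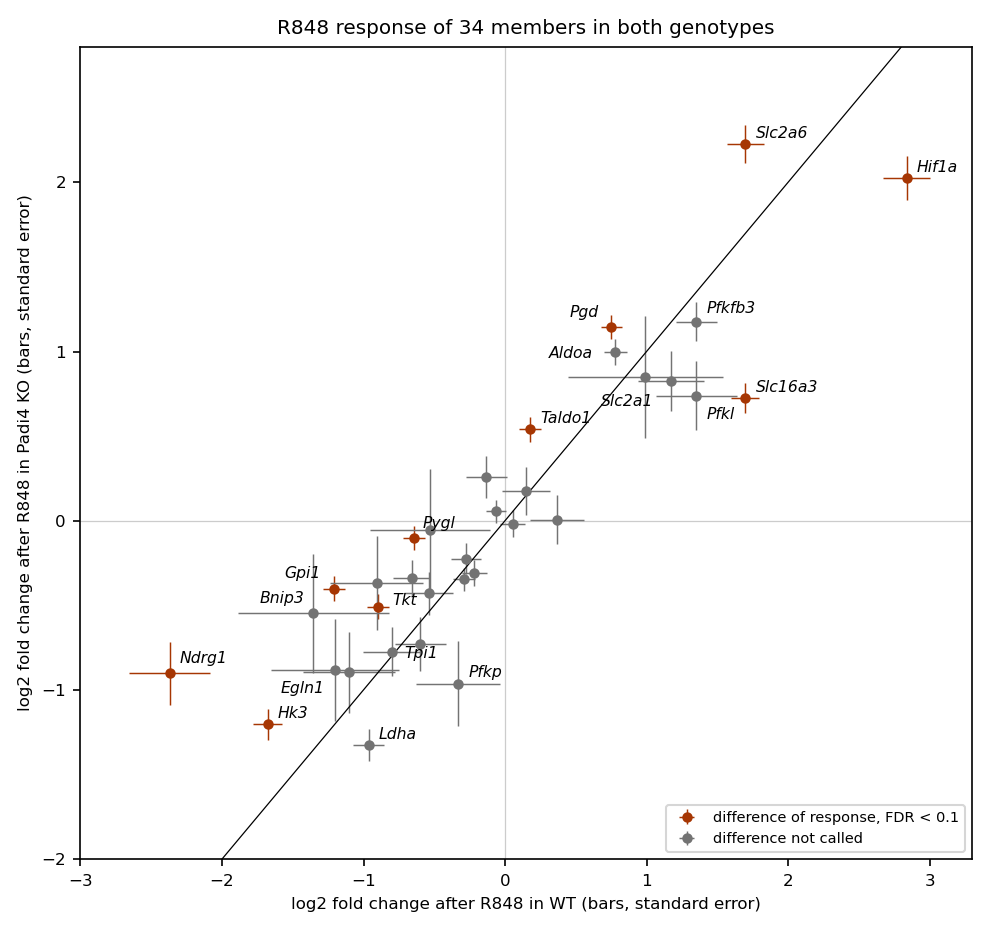
Log2 fold change after R848 in WT (x axis) and in Padi4 KO (y axis) for 34 tested members, with standard errors as bars, the line of equal response, and in brown the 10 members whose responses differed between genotypes at a false discovery rate below 0.1. Pdk1 is left out because it had 0 counts in both WT libraries after R848. Hif1a and Slc16a3 lie below the line and Gpi1, Ndrg1, Pygl and Hk3 above it.

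The transcripts of the glucose transporters shifted in their shares. Slc2a6, the transporter GLUT6 of intracellular membranes, measured 161 and 138 CPM in the unstimulated WT libraries and 454 and 517 CPM after R848, and 119.8 and 95.8 against 481 and 509 CPM in Padi4 KO. The groups did not overlap, and the rise was 1.70 on the log2 scale in WT (SE 0.13, edgeR adjusted p = 2.27e-37) and 2.23 in Padi4 KO (SE 0.11, edgeR adjusted p = 1.16e-86). Slc2a1, the widely expressed transporter GLUT1, rose from 37.1 and 57.0 to 110.1 and 101 CPM in WT (log2 fold change 1.17, SE 0.23, edgeR adjusted p = 5.75e-06) and from 59.9 and 43.5 to 92.4 and 85.5 CPM in Padi4 KO (log2 fold change 0.83, SE 0.18, edgeR adjusted p = 2.17e-05). Slc2a3, the high-affinity transporter GLUT3, had 986 and 899.5 CPM in unstimulated WT and fell to 825 and 800.3 CPM (log2 fold change -0.22, SE 0.088, edgeR adjusted p = 0.0529), with log2 fold change -0.31, SE 0.079, edgeR adjusted p = 0.00056 in Padi4 KO. Per kilobase of exon, Slc2a3 made up 68.4 ± 1.05% (SD, n = 2) of the summed level of these 3 transporters in unstimulated WT and 38.3 ± 2.06% after R848, while Slc2a6 went from 24.5 ± 1.42% to 51.5 ± 3.03%. In Padi4 KO the Slc2a6 share went from 20.6 ± 1.55% to 56.8 ± 0.556%. These shares do not depend on the scaling between libraries.

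The hexokinases, which phosphorylate glucose on entry, were dominated by Hk3, the isoform of myeloid cells. Hk3 measured 934 and 906 CPM in unstimulated WT and 312 and 266 CPM after R848, and 606 and 628 against 235 and 301 CPM in Padi4 KO, with no overlap between unstimulated and R848 libraries. It fell by 1.68 on the log2 scale in WT (SE 0.10, edgeR adjusted p = 1.28e-55) and by 1.20 in Padi4 KO (SE 0.092, edgeR adjusted p = 1.09e-37). Hk1, the ubiquitous isoform, fell by less, with log2 fold change -0.54, SE 0.17, edgeR adjusted p = 0.0107 in WT and log2 fold change -0.43, SE 0.13, edgeR adjusted p = 0.00329 in Padi4 KO. Hk2, the inducible isoform, was not called, at 100.5 and 89.8 CPM before and 137 and 112 CPM after R848 in WT (edgeR adjusted p = 0.163) and 99.5 and 113 against 92.4 and 124 CPM in Padi4 KO. The Hk3 share of the 3 hexokinases per kilobase of exon went from 87.7 ± 0.417% (SD, n = 2) to 69.8 ± 1.11% in WT and from 81.3 ± 0.403% to 68.5 ± 1.73% in Padi4 KO.

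In upper glycolysis 3 members rose and 3 fell in WT, and 3 rose and 4 fell in Padi4 KO, of 7 tested, against 13.5% higher and 16% lower over all genes in WT and 19.2% and 15.9% in Padi4 KO. Gpi1, which turns glucose 6-phosphate into fructose 6-phosphate, measured 1957 and 1944 CPM in unstimulated WT and 817 and 869 CPM after R848, and fell by 1.21 on the log2 scale (SE 0.081, edgeR adjusted p = 1.13e-48). In Padi4 KO it measured 1265 and 1226 CPM and then 983 and 902 CPM (log2 fold change -0.40, SE 0.074, edgeR adjusted p = 4.69e-07), so that both Padi4 KO groups lay between the 2 WT groups. Of its 50-base exon windows 15.8% also occur in transcripts of other genes.

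Pfkl and Pfkfb3, which act at the committed step of glycolysis, rose in both genotypes. Pfkl, a phosphofructokinase subunit, had 35.6 and 20.7 CPM before and 81.5 and 65.5 CPM after R848 in WT (log2 fold change 1.35, SE 0.29, edgeR adjusted p = 2.32e-05), and log2 fold change 0.74, SE 0.20, edgeR adjusted p = 0.00158 in Padi4 KO. Pfkfb3, which makes the phosphofructokinase activator fructose 2,6-bisphosphate, rose from 139 and 119 to 338 and 324 CPM in WT (log2 fold change 1.35, SE 0.14, edgeR adjusted p = 1.92e-19) and from 150.4 and 111 to 283 and 292 CPM in Padi4 KO (log2 fold change 1.18, SE 0.12, edgeR adjusted p = 8.67e-23). Its relative Pfkfb4 went the other way, with log2 fold change -0.66, SE 0.13, edgeR adjusted p = 2.99e-06 in WT and log2 fold change -0.34, SE 0.11, edgeR adjusted p = 0.00689 in Padi4 KO. Pfkp, the platelet-type subunit, fell in Padi4 KO from 38.4 and 45.0 to 22.2 and 21.1 CPM (log2 fold change -0.96, SE 0.25, edgeR adjusted p = 0.000874), and its value in WT was -0.33 (SE 0.30, edgeR adjusted p = 0.483), while the difference between these responses was not called (edgeR adjusted p = 0.531).

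Aldoa, the aldolase that splits fructose 1,6-bisphosphate, measured 874 and 849 CPM in unstimulated WT and 1435 and 1519 CPM after R848, and 745 and 678 against 1394 and 1436 CPM in Padi4 KO. It was higher in every R848 library than in every unstimulated library (log2 fold change 0.78, SE 0.082, edgeR adjusted p = 6.9e-20 in WT and log2 fold change 1.00, SE 0.075, edgeR adjusted p = 2.28e-38 in Padi4 KO). Tpi1, which interconverts the triose phosphates that aldolase makes, fell instead, from 128 and 126 to 89.7 and 58.4 CPM in WT (log2 fold change -0.80, SE 0.20, edgeR adjusted p = 0.000674) and from 148 and 133 to 79.1 and 83.6 CPM in Padi4 KO (log2 fold change -0.77, SE 0.15, edgeR adjusted p = 1.02e-06).

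Of the 4 tested members of lower glycolysis, 2 fell and 0 rose in each genotype, next to 16% and 15.9% of all genes that fell in WT and Padi4 KO. Gapdh, which oxidises glyceraldehyde 3-phosphate, had 1832 and 1818 CPM before and 1366 and 1615 CPM after R848 in WT (log2 fold change -0.29, SE 0.076, edgeR adjusted p = 0.000923), and log2 fold change -0.35, SE 0.07, edgeR adjusted p = 6.73e-06 in Padi4 KO. Pgk1, the first ATP-yielding step, fell by 0.28 in WT (edgeR adjusted p = 0.0358) and by 0.22 in Padi4 KO (edgeR adjusted p = 0.0449). Pgam1 had -0.13 in WT and 0.26 in Padi4 KO on the log2 scale, neither called. Pkm, the pyruvate kinase of most tissues, had 2523 and 2245 CPM before and 2248 and 2318 CPM after R848 in WT, and neither its WT value of -0.063 (SE 0.071) nor its Padi4 KO value of 0.055 (SE 0.068) was called. Some reads of these genes may not be placed for certain. In transcripts of other genes there also occur 53.9% of the 50-base exon windows of Pgk1, 36.2% of Pgam1, 25.8% of Pkm and 25.1% of Gapdh. How many reads this affected was not measured.

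The genes for lactate moved in opposite directions. Ldha, the subunit of lactate dehydrogenase that favours lactate, measured 601 and 519.7 CPM in unstimulated WT and 275 and 299 CPM after R848, and 596 and 544 against 233 and 219.7 CPM in Padi4 KO. It fell by 0.96 on the log2 scale in WT (SE 0.11, edgeR adjusted p = 2.52e-16) and by 1.33 in Padi4 KO (SE 0.096, edgeR adjusted p = 6.05e-42). Slc16a3, which encodes the lactate exporter MCT4, rose instead, from 320.0 and 318 to 1139 and 935 CPM in WT (log2 fold change 1.70, SE 0.10, edgeR adjusted p = 2.19e-62) and from 337 and 349 to 572 and 563 CPM in Padi4 KO (log2 fold change 0.72, SE 0.089, edgeR adjusted p = 8.76e-15). The R848 libraries of the genotypes did not overlap, although the unstimulated libraries of both lay between 318 and 349 CPM. Pdk1, which restrains the entry of pyruvate into mitochondria, had 3 and 5 counts in unstimulated WT, 0 counts in both WT libraries after R848, 21 and 21 in unstimulated Padi4 KO and 9 and 7 in Padi4 KO after R848. Against a floor of 3 counts over the group, it was at least 2.30-fold lower after R848 in WT, with TMM factors.

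The pentose phosphate enzymes split by step. Pgd, the second NADPH-yielding enzyme, measured 1459 and 1438 CPM in unstimulated WT and 2368 and 2511 CPM after R848, and 972 and 976 against 2133 and 2175 CPM in Padi4 KO (log2 fold change 0.75, SE 0.074, edgeR adjusted p = 1.01e-22 in WT, log2 fold change 1.14, SE 0.071, edgeR adjusted p = 1.88e-56 in Padi4 KO). G6pdx, the first and rate-limiting enzyme, was not called, with 813 and 741 CPM before and 807 and 807 CPM after R848 in WT. Its log2 value was 0.053 (SE 0.09) in WT, where library size alone gave -0.25, and -0.017 (SE 0.079) in Padi4 KO. Pgls, the lactonase between these 2 steps, fell from 57.2 and 48.3 to 24.5 and 24.8 CPM in WT (log2 fold change -1.10, SE 0.33, edgeR adjusted p = 0.00434), with log2 fold change -0.90, SE 0.24, edgeR adjusted p = 0.0011 in Padi4 KO.

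Tkt and Taldo1, the enzymes of the non-oxidative branch, moved apart. Tkt, transketolase, fell from 1974 and 1847 to 1005 and 1045 CPM in WT (log2 fold change -0.90, SE 0.079, edgeR adjusted p = 1.88e-28) and from 1411 and 1336 to 959.5 and 969.6 CPM in Padi4 KO (log2 fold change -0.51, SE 0.073, edgeR adjusted p = 4.79e-11). Taldo1, transaldolase, rose from 939.5 and 897 to 1339.8 and 1329 CPM in Padi4 KO (log2 fold change 0.54, SE 0.073, edgeR adjusted p = 2.66e-12). In WT it had 1351 and 1278 CPM and then 1529 and 1452 CPM (log2 fold change 0.18, SE 0.078, edgeR adjusted p = 0.0785), a call that library size alone turned to -0.13. Pygl, the glycogen phosphorylase of liver and leukocytes, fell in WT from 2061 and 2081 to 1347 and 1305 CPM (log2 fold change -0.64, SE 0.076, edgeR adjusted p = 6.4e-16), and in Padi4 KO it measured 1315 and 1396 CPM before and 1302 and 1223 CPM after R848 (-0.10, edgeR adjusted p = 0.297). Gys1, glycogen synthase, fell in both (log2 fold change -0.60, SE 0.18, edgeR adjusted p = 0.00554 in WT, log2 fold change -0.73, SE 0.16, edgeR adjusted p = 4.47e-05 in Padi4 KO).

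Hif1a rose more than any other member in WT. It measured 64.9 and 50.1 CPM in the unstimulated WT libraries and 450.4 and 382 CPM after R848, and 54.3 and 87.1 against 295 and 307 CPM in Padi4 KO. The log2 fold change was 2.84 in WT (SE 0.16, edgeR adjusted p = 2.17e-65) and 2.03 in Padi4 KO (SE 0.13, edgeR adjusted p = 5.06e-55). Egln1, the main prolyl hydroxylase of HIF-1α, fell from 27.8 and 29.4 to 16.3 and 8.85 CPM in WT (log2 fold change -1.20, SE 0.45, edgeR adjusted p = 0.0343) and from 33.9 and 27.6 to 13.3 and 19.3 CPM in Padi4 KO (log2 fold change -0.88, SE 0.30, edgeR adjusted p = 0.0138), from few reads. Egln3, an inducible prolyl hydroxylase, was not called in either genotype.

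Of the 5 listed HIF targets outside metabolism, 3 fell and 0 rose in WT, and 1 fell and 1 rose in Padi4 KO, where all genes gave 16% lower and 13.5% higher in WT and 15.9% and 19.2% in Padi4 KO. Ndrg1, a hypoxia-induced stress gene, measured 116 and 100.1 CPM in unstimulated WT and 22.4 and 19.5 CPM after R848 (log2 fold change -2.37, SE 0.28, edgeR adjusted p = 2.05e-15), and 95.0 and 70.4 against 47.1 and 38.6 CPM in Padi4 KO (log2 fold change -0.90, SE 0.19, edgeR adjusted p = 1.06e-05). Bnip3, a mitophagy receptor, fell in WT (log2 fold change -1.35, SE 0.53, edgeR adjusted p = 0.0447) and had -0.55 in Padi4 KO (edgeR adjusted p = 0.251), with 47.2% of its exon windows shared with other transcripts. Vegfa, the angiogenic growth factor, fell in WT from 46.4 and 50.1 to 26.5 and 24.8 CPM (log2 fold change -0.91, SE 0.33, edgeR adjusted p = 0.0276) and had -0.37 in Padi4 KO (edgeR adjusted p = 0.345). Ero1l, an oxidase of disulfide formation, was not called, and P4ha1, a collagen prolyl hydroxylase subunit, was called only in Padi4 KO (log2 fold change 0.85, SE 0.36, edgeR adjusted p = 0.0593) next to 0.99 (SE 0.55) in WT, where the difference between genotypes was not called (edgeR adjusted p = 1).

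Ratios of counts between members of the same library do not depend on the scaling between libraries, and the pairs shown here were chosen after their values were seen. The ratio of Slc16a3 to Ldha went from a mean of 0.572 to 3.63 in WT and from 0.604 to 2.51 in Padi4 KO. That of Aldoa to Gpi1 went from 0.442 to 1.75 in WT and from 0.571 to 1.51 in Padi4 KO, and that of Pgd to Tkt from 0.759 to 2.38 and from 0.710 to 2.23. For these 3 ratios every R848 library lay above every unstimulated library. The ratio of Slc16a3 to Aldoa went up in WT, from 0.366 and 0.374 in the unstimulated libraries to 0.794 and 0.615, but in Padi4 KO it went from 0.452 and 0.514 to 0.411 and 0.392. With Slc2a6 as the denominator, the WT groups overlapped, at 1.99 and 2.3 before and 2.51 and 1.81 after R848. In Padi4 KO that ratio went from 2.81 and 3.64 to 1.19 and 1.11.

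**Figure D4:**
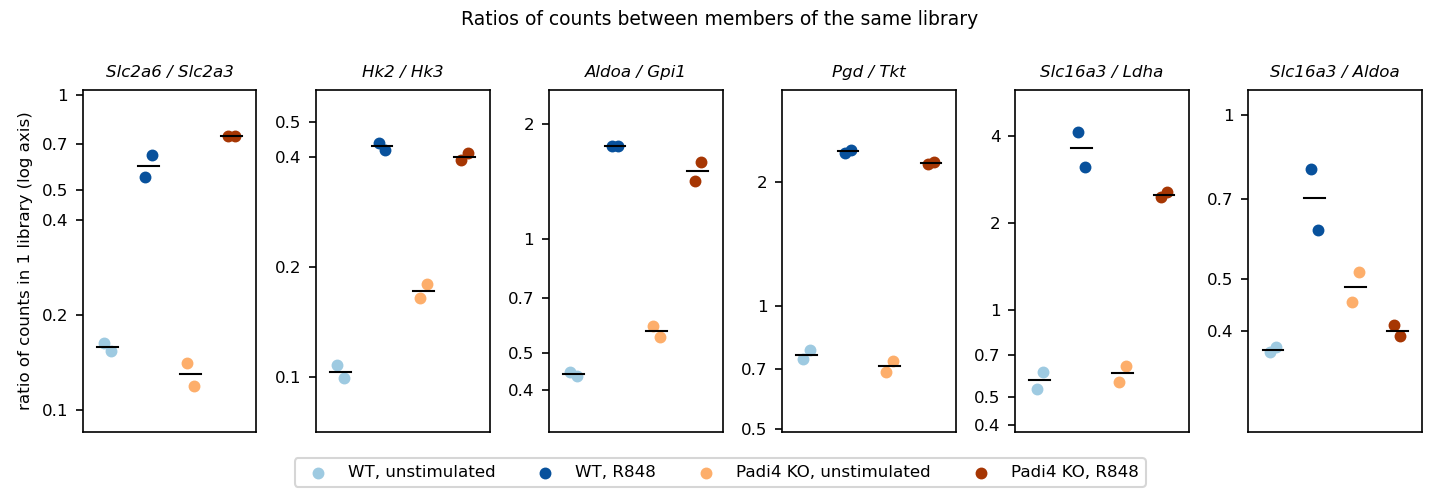
Ratio of the counts of 2 members within a library (y axis, log scale with its own range in each panel) in the 8 libraries, grouped by colour, with black bars for the mean of 2 libraries. The first 5 ratios were higher in both R848 groups than in the unstimulated groups, whereas the ratio of Slc16a3 to Aldoa was higher after R848 in WT and lower in Padi4 KO.

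Several of these calls were not kept in every fit with 1 library left out, and some were lost while the value hardly moved. The 2 libraries of the WT R848 group agreed least, with a chi-square over its degrees of freedom of 1.64 between their counts, against 1.06 to 1.19 in the other groups. In WT, 11 called members lost their call when 1 library was left out, and the rises of Slc2a1, Slc2a6, Pfkl, Pfkfb3, Aldoa, Slc16a3, Pgd and Hif1a were not among them. Without the first WT R848 library, the log2 values were -0.040 for Gapdh, -0.34 for Hk1, -0.46 for Gys1, -0.91 for Bnip3, -0.82 for Vegfa, -0.26 for Pgk1 and -0.10 for Slc2a3. Without the second WT R848 library they were -0.40 for Tpi1, -0.053 for Pgk1, -0.50 for Gys1, -0.70 for Egln1, -0.76 for Vegfa and -0.093 for Slc2a3, and Pdk1 also lost its call, with 0 counts in the remaining library too. Without the second unstimulated WT library they were -0.44 for Hk1, 0.14 for Taldo1, -1.17 for Egln1, -1.22 for Bnip3 and -0.85 for Vegfa, and without the first -0.15 for Slc2a3 and -0.26 for Pgk1. Leaving out either Padi4 KO R848 library, which changes the TMM factors, gave -0.12 for Slc2a3 and -0.18 for Pgk1. In Padi4 KO, 6 called members lost their call in this way. Pfkl had 0.51 without the second R848 library, Pfkfb4 had -0.28 without the second unstimulated library, Egln1 had -0.78 without the first R848 library, Pgk1 had -0.22 and -0.23 without the first and the second unstimulated library, and Pdk1 had -1.06 without the first. P4ha1 had 0.66 without the first unstimulated Padi4 KO library, 0.46 without the first Padi4 KO R848 library and 0.71 and 0.72 without either WT R848 library.

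Other values kept their call but moved by over 1.5 times. Pfkfb4 had -0.36 in WT without the first WT R848 library, Gapdh had -0.19 without either Padi4 KO R848 library, and Taldo1 had 0.28 to 0.32 without any 1 of the 4 R848 libraries. In Padi4 KO, the values without its first R848 library were -0.61 for Gpi1, -0.57 for Pfkfb4 and -0.53 for Gapdh, and those without its second were -0.47 for Slc2a3 and -0.41 for Pgk1. Pgk1 also had -0.36 and -0.35 in Padi4 KO without the first and the second WT R848 library. Library size alone, which lowered the median of all genes from -0.074 to -0.38 in WT and from 0.077 to -0.30 in Padi4 KO, made rises smaller and falls larger. The rises were then 0.47 for Aldoa and 0.45 for Pgd in WT. In Padi4 KO they were 0.45 for Slc2a1, 0.62 for Aldoa, 0.35 for Slc16a3 and 0.17 for Taldo1, while Pfkl at 0.36 and P4ha1 at 0.47 lost their call. The falls that grew by over 1.5 times were those of Slc2a3, Hk1, Gapdh, Pgk1 and Gys1 in both genotypes, and of Gpi1, Pfkfb4 and Tkt in Padi4 KO.

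The second comparison asked whether the response differed between the genotypes, taken as the log2 response of Padi4 KO less that of WT. Of the 35 members, 8 had a higher value and 2 a lower value in Padi4 KO, against 3.45% and 1.26% of all genes tested and 5.87% and 2.16% of those with at least 10 counts. With relative log expression factors in place of TMM factors, 3 members were higher and 3 lower. DESeq2 ended 5 of the calls and gave no adjusted p for 10 members, Ndrg1 among them. Most of the calls were also lost without at least 1 library, as given below. The median difference of all genes with at least 10 counts was 0.18, so 16 members lay above it and 18 below, leaving out Pdk1. This comparison uses the libraries of both responses, so its values restate those given above as a difference.

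Slc16a3 and Hif1a had smaller rises in Padi4 KO. The difference was -0.97 for Slc16a3 (SE 0.14, edgeR adjusted p = 4.97e-10) and -0.81 for Hif1a (SE 0.23, edgeR adjusted p = 0.0206). The value of Slc16a3 stayed between -1.34 and -0.91 in 16 other settings and kept its call in each. That of Hif1a lost its call without the second unstimulated WT library, at -0.65, and without the second unstimulated Padi4 KO library, at -0.38. Slc2a1, Pfkl and Pfkfb3, which also rose, had differences of -0.35 (SE 0.30), -0.61 (SE 0.36) and -0.18 (SE 0.19) that were not called.

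Gpi1 and Pygl fell by more in WT, with differences of 0.81 (SE 0.11, edgeR adjusted p = 1.28e-10) and 0.54 (SE 0.10, edgeR adjusted p = 4.68e-05). Gpi1 kept its call in all 16 other settings, between 0.49 and 0.82, with 0.49 without the first WT R848 library and 0.50 without the first Padi4 KO R848 library. Pygl lost it without any 1 of the 4 R848 libraries, between 0.25 and 0.36. Ndrg1 had the largest difference of the members called, 1.47 (SE 0.36, edgeR adjusted p = 0.00446), and lost its call at 1.14 and 1.30 without the second and the first WT R848 library and at 1.07 without the first Padi4 KO R848 library.

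The other 5 were small and depended on the scaling. They were 0.53 for Slc2a6 (edgeR adjusted p = 0.0835), 0.47 for Hk3 (edgeR adjusted p = 0.0343), 0.39 for Pgd (edgeR adjusted p = 0.0081), 0.36 for Taldo1 (edgeR adjusted p = 0.0305) and 0.39 for Tkt (edgeR adjusted p = 0.0149). Each lost its call with DESeq2, with relative log expression factors and without any 1 of the 4 R848 libraries, when the lowest values were 0.17 for Slc2a6, 0.0645 for Hk3, 0.077 for Pgd, 0.096 for Taldo1 and 0.091 for Tkt. Without the first unstimulated WT library the calls of Slc2a6, Hk3, Taldo1 and Tkt were lost too, at 0.41, 0.45, 0.32 and 0.34, and without an unstimulated Padi4 KO library those of Slc2a6, Taldo1 and Tkt (0.34, 0.32 and 0.34 without the second) and Hk3 (0.44 without the first). Among the members not called, Ldha had -0.36 (SE 0.15) and Aldoa 0.22 (SE 0.11).

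The third comparison set Padi4 KO against WT before stimulation. Of the 35 members, 17 were lower and 1, Pdk1, was higher, against 14.4% lower and 9.55% higher among all genes tested, and against 24.2% lower and 12.4% higher among genes with at least 10 counts, where 17 and 0 of 34 members were called. The fitted values shared a shift, since the median of all genes with at least 10 counts was -0.16, and that of the members was -0.23, with 14 members above the median of all genes and 20 below it, leaving out Pdk1. With library size alone the median of all genes was 0.12, and 7 members were lower and 8 higher. DESeq2 ended 10 of the 18 calls. The members that were lower under all 16 other settings were Gpi1, Pygl, Pgam1, Hk3, Pgd, Taldo1 and Tkt, 7 of the 18 called.

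These 7 were enzymes of hexose phosphate, pentose phosphate and glycogen metabolism, together with Pgam1 of lower glycolysis. Gpi1 had 1957 and 1944 CPM in WT and 1265 and 1226 CPM in Padi4 KO (log2 fold change -0.65, SE 0.073, edgeR adjusted p = 1.15e-16), and Pygl had 2061 and 2081 against 1315 and 1396 CPM (log2 fold change -0.61, SE 0.072, edgeR adjusted p = 3.52e-15). The log2 fold changes were -0.58 for Hk3 (SE 0.085), -0.57 for Pgd (SE 0.075), -0.52 for Taldo1 (SE 0.077), -0.48 for Tkt (SE 0.072) and -0.64 for Pgam1 (SE 0.13), each with groups that did not overlap. With library size alone the 7 values were -0.36 for Gpi1, -0.32 for Pygl, -0.29 for Hk3, -0.29 for Pgd, -0.23 for Taldo1, -0.19 for Tkt and -0.35 for Pgam1. Pkm, also called (log2 fold change -0.37, SE 0.069, edgeR adjusted p = 2.92e-06), lost its call with library size alone, and had -0.24 to -0.22 without any 1 of the 4 R848 libraries. Pdk1 was the exception, with 3 and 5 counts in the WT libraries against 21 and 21 in those of Padi4 KO (log2 fold change 1.49, SE 0.52, edgeR adjusted p = 0.026), and it lost its call without the first library of either genotype, at 1.10 and 1.22, and with DESeq2.

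Of the members not called, Hif1a, Slc16a3, Ldha, Hk1, Hk2, Slc2a1, Pfkl, Tpi1, Egln1 and P4ha1 lay above 0 in unstimulated Padi4 KO, from 0.014 for Ldha to 0.38 for Pfkl. The further calls were Slc2a6 (-0.50), Gys1 (-0.53), Pfkfb4 (-0.37), Aldoa (-0.28), Pgk1 (-0.25), Slc2a3 (-0.19), Vegfa (-0.72), Ero1l (-0.38) and Ndrg1 (-0.43), and each of these except Gys1 was lost without at least 1 library. All 9, Gys1 included, lost their call with DESeq2 and with library size alone. With 1 library left out, their values came closest to 0 at -0.31 for Slc2a6 without the second unstimulated Padi4 KO library, at -0.18 for Ndrg1 without that same library, at -0.22 for Pfkfb4, -0.14 for Aldoa, -0.10 for Pgk1, -0.048 for Slc2a3, -0.57 for Vegfa and -0.23 for Ero1l without the second WT R848 library. Any 1 of the 4 R848 libraries left out ended the calls of Aldoa, Pgk1, Slc2a3, Vegfa, Ero1l and Ndrg1. Slc2a6 also lost its call without the first unstimulated WT library, at -0.39. With library size alone the values of Slc2a3, Aldoa and Pgk1 turned to 0.093, 0.0049 and 0.038. Those of Slc2a6, Ndrg1, Pfkfb4, Vegfa and Ero1l were -0.22, -0.15, -0.081, -0.43 and -0.097.

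Sums of markers of other cells moved with the genotype. Erythroid markers (18 of 20 in the table, with Hba-a1, Hba-a2, Hbb-bs and Hbb-bt at 0) summed to 139–145 CPM, relative to library totals, for unstimulated WT and 1458–1485 CPM in unstimulated Padi4 KO, and 13 of the 14 tested were higher in Padi4 KO. After R848 they summed to 22.4–32.8 CPM and 1607–1683 CPM, with 14 of 14 higher. Of the 12 neutrophil markers, 11 were lower in unstimulated Padi4 KO and 10 after R848. In every unstimulated Padi4 KO library the sums of monocyte and macrophage (12 of 12 in the table), stromal and endothelial (10 of 10) and megakaryocyte and platelet (6 of 6) markers given above lay over those of both unstimulated WT libraries. The same held for B and plasma cell markers (9 of 9, with Ebf1 at 0), at 92.0–112 CPM in WT and 179–185 CPM in Padi4 KO. After R848 it held for B and plasma cells, at 42.6–61.3 and 115–121 CPM, for monocytes and macrophages and for megakaryocytes and platelets, and the stromal and endothelial sum was lower in Padi4 KO. The T and NK cell sum was lower in Padi4 KO, at 18.1–20.9 against 32.0–40.6 CPM before and 4.24–9.70 against 9.83–11.96 CPM after R848. That of 10 eosinophil, basophil and mast cell markers overlapped between the genotypes, at 33.8–56.2 CPM in WT and 34.9–35.4 CPM in Padi4 KO before and 19.7–34.4 and 15.0–22.1 CPM after R848. Fewer single markers were called in these lists than in the erythroid list. Before stimulation, 6 of 12 monocyte and macrophage markers were higher in Padi4 KO and 1 lower. Of 7 stromal and endothelial markers tested, 3 were higher and 1 lower. Higher too were 2 of 6 megakaryocyte and platelet markers and 1 of 6 B and plasma cell markers, while 1 of 3 T and NK cell markers was lower. After R848, 5 monocyte and macrophage markers were higher in Padi4 KO and 1 lower. At that time 1 megakaryocyte and platelet marker and 1 B and plasma cell marker were higher, and 1 stromal and endothelial marker was lower. Of the 3 T and NK cell markers 0 were called after R848. The part of these cells in the differences between genotypes was not tested.

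After R848, 9 members were lower in Padi4 KO and 2 higher, against 7.81% and 9.46% of all genes tested. Among genes with at least 10 counts, 13.4% were lower and 12.9% higher, against 9 and 1 of 34 members. The median of all genes with at least 10 counts was -0.0019 and that of the members -0.18, with 9 members above the median of all genes and 25 below it, leaving out Pdk1. With relative log expression factors 16 members were lower, and with library size alone 1. Slc16a3 was the member that stayed lower in all 16 other settings, at 1139 and 935 CPM in WT and 572 and 563 CPM in Padi4 KO (log2 fold change -0.86, SE 0.086, edgeR adjusted p = 1.1e-21).

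Hif1a was lower as well, at 450.4 and 382 CPM in WT and 295 and 307 CPM in Padi4 KO (log2 fold change -0.46, SE 0.11, edgeR adjusted p = 0.000306), a call lost only with library size alone among the 16 settings, at -0.25. The same setting alone ended the calls of Gys1 (log2 fold change -0.66, SE 0.19, edgeR adjusted p = 0.00775), Slc2a3 (log2 fold change -0.29, SE 0.086, edgeR adjusted p = 0.00961) and Pkm (log2 fold change -0.25, SE 0.07, edgeR adjusted p = 0.00498). Ldha (log2 fold change -0.35, SE 0.12, edgeR adjusted p = 0.0308) was also lost without the second WT R848 library, at -0.36, and so was Pfkp (log2 fold change -0.84, SE 0.32, edgeR adjusted p = 0.0566), at -0.91, whose call DESeq2 ended too. Gapdh (log2 fold change -0.19, SE 0.074, edgeR adjusted p = 0.076) and Pgd (log2 fold change -0.18, SE 0.07, edgeR adjusted p = 0.066) turned to 0.026 and 0.035 with library size alone. Both lost their call without either unstimulated Padi4 KO library, at -0.18, as did Gapdh without the second WT R848 library, at -0.14. Without the first WT R848 library the values were -0.41 for Pkm, -0.55 for Ldha, -0.44 for Gapdh and -0.36 for Pgd. Without the first Padi4 KO R848 library they were -0.34 for Gapdh and -0.28 for Pgd. Pgd had -0.29 without the second. Gpi1 and Slc2a6, both lower in Padi4 KO before stimulation, had 0.16 (SE 0.082) and 0.022 (SE 0.098) after R848, not called.

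Ndrg1 and Pdk1 were the 2 members that were higher in Padi4 KO after R848. Ndrg1 measured 22.4 and 19.5 CPM in WT and 47.1 and 38.6 CPM in Padi4 KO (log2 fold change 1.04, SE 0.32, edgeR adjusted p = 0.0129), and lost its call with DESeq2, without the first or the second WT R848 library, at 0.99 and 0.85, and without the first Padi4 KO R848 library, at 0.77. Pdk1 was at least 2.54-fold higher in Padi4 KO against the floor of 3 counts over the WT group, and lost its call without the second WT R848 library.

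**Figure D5:**
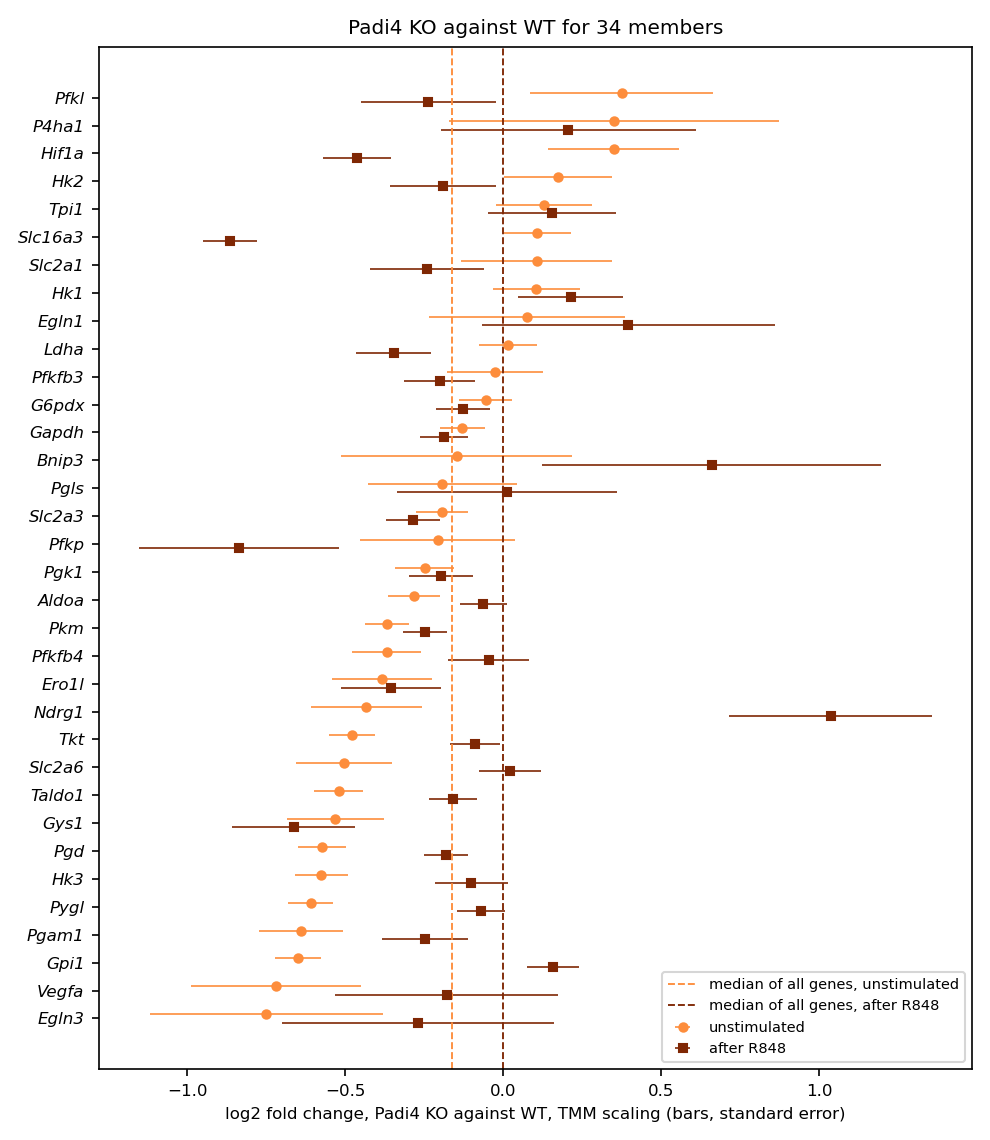
Log2 fold change of Padi4 KO against WT (x axis, TMM factors, bars are standard errors) for 34 members (y axis, ordered by the unstimulated value), unstimulated in orange and after R848 in brown, with dashed lines at the medians of all genes with at least 10 counts, -0.16 and -0.0019. Gpi1, Pygl and Hk3 lie left of the line before stimulation and near 0 after R848, whereas Slc16a3 and Hif1a lie right of 0 before and left of it after R848.

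A wider list of 140 other genes of the same pathways, of which 115 were tested, was counted in the same way, but only 60 of the 115 had at least 10 counts on average. In WT 12 rose and 22 fell after R848, against 13.5% and 16% of all genes tested. In Padi4 KO 14 rose and 21 fell, against 19.2% and 15.9%. The difference of response was called higher in Padi4 KO for 4 and lower for 3, against 3.45% and 1.26%. Before stimulation 14 were higher and 18 lower in Padi4 KO, against 9.55% and 14.4%. After R848 10 were higher and 11 lower, against 9.46% and 7.81%. Adpgk, the ADP-dependent glucokinase, fell from 1997 and 1911 to 870.3 and 834 CPM in WT and from 1391 and 1209 to 514 and 530.3 CPM in Padi4 KO (log2 fold change -1.20, SE 0.081, edgeR adjusted p = 9.65e-48 and log2 fold change -1.31, SE 0.078, edgeR adjusted p = 1.74e-61).

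Of the wider HIF target list, 28 genes were tested, and 8 rose and 4 fell in WT, against 13.5% and 16% of all genes tested. In Padi4 KO 9 of the 28 rose and 5 fell, against 19.2% and 15.9%. Bhlhe40, a transcriptional repressor of the clock and hypoxia pathways, rose from 17.0 and 24.2 to 355 and 306 CPM in WT and from 10.2 and 7.98 to 196 and 158 CPM in Padi4 KO (log2 fold change 4.00, SE 0.22, edgeR adjusted p = 1.36e-73 and log2 fold change 4.30, SE 0.22, edgeR adjusted p = 4.27e-80). Hmox1, heme oxygenase 1, rose from 69.6 and 81.1 to 438 and 496 CPM and from 65.6 and 74.0 to 426 and 406 CPM (log2 fold change 2.64, SE 0.15, edgeR adjusted p = 3.26e-66 and log2 fold change 2.56, SE 0.12, edgeR adjusted p = 1.02e-93). Anxa1, the anti-inflammatory annexin, fell from 3829 and 3679 to 1897 and 1661 CPM in WT and from 2613 and 2637 to 1198 and 1156 CPM in Padi4 KO, and Cxcr4, the receptor that holds neutrophils in the marrow, fell by 0.83 in WT and had -0.26 in Padi4 KO. The latter call was lost with DESeq2, without either unstimulated Padi4 KO library and without the second Padi4 KO R848 library, at -0.30 to -0.23. Of the genes that regulate HIF, Egln2, a prolyl hydroxylase, rose by 0.59 in WT and 1.11 in Padi4 KO, and Tceb2, an elongin subunit of the VHL ligase, by 0.69 and 0.54. Library size alone ended the WT call of Egln2 and both calls of Tceb2. The WT call of Egln2 was also lost with DESeq2 and without the second unstimulated WT library, at 0.48. That of Tceb2 was lost in WT without the first unstimulated library, at 0.58, and in Padi4 KO with DESeq2, without the second unstimulated library, at 0.28, and without the first R848 library, at 0.13. Cited2, which competes with HIF-1α for its coactivator, fell by 1.66 in WT, or by 1.05 without the first WT R848 library, and by 0.91 in Padi4 KO.

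Around glycogen and pyruvate, Gyg, the glycogenin that primes glycogen, fell by 0.76 in WT and by 0.79 in Padi4 KO. Ppp1r3b, a glycogen-targeting subunit of protein phosphatase 1, measured 81.9 and 138 CPM before and 251 and 172 CPM after R848 in WT (log2 fold change 0.94, SE 0.17, edgeR adjusted p = 1.75e-07), and 116 and 114 against 119 and 133 CPM in Padi4 KO (0.13, edgeR adjusted p = 0.522). Without the first unstimulated WT library the WT value of Ppp1r3b was 0.60. Pdk3, a pyruvate dehydrogenase kinase, fell in Padi4 KO (log2 fold change -0.98, SE 0.22, edgeR adjusted p = 8.13e-05). In WT it had log2 fold change -0.69, SE 0.31, edgeR adjusted p = 0.097, a call that was lost with DESeq2 and in 5 of the 8 fits with 1 library left out, among them -0.23 without the second unstimulated WT library. Khk, ketohexokinase, fell by 2.43 in Padi4 KO and by 1.98 in WT. The WT call was lost with DESeq2, without the first unstimulated WT library and without the second WT R848 library, at -1.37.

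A further set was higher in Padi4 KO with and without R848. Pklr, the pyruvate kinase of liver and red cells, had 2 and 1 counts in the unstimulated WT libraries against 58 and 102 in those of Padi4 KO (log2 fold change 4.77, SE 0.46, edgeR adjusted p = 6.28e-23). Tfrc, the transferrin receptor, had 37.1 and 17.3 CPM against 217 and 197 CPM (log2 fold change 2.88, SE 0.20, edgeR adjusted p = 7.42e-42), Minpp1, a phosphatase that also acts on 2,3-bisphosphoglycerate, 4.64 and 13.8 against 112 and 92.9 CPM (log2 fold change 3.47, SE 0.31, edgeR adjusted p = 3.54e-26) and Slc16a1, the lactate transporter MCT1 of red cells, 7.73 and 8.63 against 48.6 and 45.7 CPM (SE of the log2 fold change 0.38, edgeR adjusted p = 2.95e-09). Pklr, Tfrc and Slc16a1 are known to be expressed in erythroid cells, and the erythroid marker sums given above moved with the genotype in the same way. Their part in these values was not tested.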

How the data were processed

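The authors trimmed and filtered the paired-end MiSeq reads, mapped them to mm10 with STAR 2.5.3a and deposited raw counts per gene symbol from HTSeq 0.6.1p1, without normalization. The submitters' processing notes also name FastQC 0.11.7 and cutadapt 1.16. Which annotation and strand setting were used for counting is not given in the sources used here, so the counts of overlapping genes, and of genes with near-identical copies, are uncertain. The HTSeq summary lines were left out of totals and tests. Between 87.0% and 89.4% of the counts in each library fell on genes.

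Genes with at least 1 count in at least 2 libraries, 12254 of 24421, were fitted in R 4.3.3 with edgeR 4.0.16, by the robust quasi-likelihood test with TMM factors and a mean for every group. Benjamini-Hochberg adjustment ran over all genes tested, and a false discovery rate below 0.1 counted as a call. The study's methods add a change of more than 2-fold, which was counted beside it. The standard error (SE) was taken as the size of the log2 fold change over the square root of F. CPM values use the TMM factors, except for marker sums and floors. With 2 libraries against 2, an exact test of a single sum cannot go below p = 0.333, so sums and ratios have no test.

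The 36 members and the other lists were chosen with earlier results of these data known. All members and Padi4 may be named, and from each list of other pathway genes in each comparison the 2 called genes of lowest p with at least 10 counts on average. Alternatives were DESeq2 1.42.0, relative log expression factors, library size alone, other filters, the replicate number as a block, thinning to the smallest library, a false discovery rate of 0.05 and leaving out each library. The fits were also run on simulated counts, in which the groups shared a mean profile apart from genes changed in WT after R848. As those counts held no shift in composition, that run could not check the scaling. Exon lengths, shared 50-base windows and promoters are from GENCODE and RefSeq on GRCm38, the build of mm10.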

Additional observations from a re-analysis of the deposited data

Results flagged for a closer look

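The responses of 10 members to R848 differed between Padi4 KO and WT at a false discovery rate below 0.1 by edgeR's quasi-likelihood test. As the log2 response of Padi4 KO less that of WT, the values were 0.53 for Slc2a6, 0.47 for Hk3, 0.81 for Gpi1, -0.97 for Slc16a3, 0.39 for Pgd, 0.36 for Taldo1, 0.39 for Tkt, 0.54 for Pygl, -0.81 for Hif1a and 1.47 for Ndrg1. The median of all genes with at least 10 counts was 0.18 in the same comparison. Of these 10, Gpi1 and Slc16a3 kept their call in each of the 16 other settings run, and the other 8 lost it in at least 1 leave-one-out setting.

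Among the named genes of the wider pathway lists, the same difference was -1.92 for Dlat, a subunit of pyruvate dehydrogenase (edgeR adjusted p = 0.061), -0.81 for Ppp1r3b (edgeR adjusted p = 0.0108), 0.57 for Cxcr4 (edgeR adjusted p = 0.0143) and 1.74 for Ddit4, an inhibitor of mTORC1 (edgeR adjusted p = 0.0625). Each lost its call without at least 1 library. Ppp1r3b had -0.46 without the first unstimulated WT library. Cxcr4 lost its call without any 1 of the 4 R848 libraries, at 0.23 to 0.44, and without the second unstimulated Padi4 KO library, at 0.52. DESeq2 ended the calls of Ppp1r3b and Cxcr4 and gave no adjusted p for Dlat and Ddit4. Dlat measured 9.28 and 6.91 CPM and 18.3 and 21.2 CPM before and after R848 in WT, and 22.6 and 27.6 CPM and 17.8 and 14.7 CPM in Padi4 KO. Ddit4 measured 21.6 and 12.1 CPM and 26.5 and 21.2 CPM in WT, and 6.78 and 9.43 CPM and 45.3 and 33.1 CPM in Padi4 KO. Groups of 2 libraries are too small for the test of a single library standing apart.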

How the results depend on the processing

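The counts of members called higher after R848 in both genotypes, and lower in Padi4 KO, stayed within 1.5 times of the values reported under every setting run. With DESeq2, 9 members fell after R848 in WT in place of 18, the difference of response was higher in Padi4 KO for 2 in place of 8 (10 members, Ndrg1 among them, had no adjusted p there), 8 members were lower and 0 higher in unstimulated Padi4 KO in place of 17 and 1, and 1 was higher after R848 in place of 2. With relative log expression factors, the difference was higher for 3 members and lower for 3 in place of 2, and 16 in place of 9 were lower in Padi4 KO after R848. With library size alone, the difference was higher for 5 members, 8 were higher and 7 lower in unstimulated Padi4 KO, and 5 were higher and 1 lower after R848. Leaving out 1 library at a time gave 11–18 members lower after R848 in WT, 1–8 with a higher and 1–4 with a lower difference of response, 0–3 higher and 10–14 lower in unstimulated Padi4 KO, and 0–2 higher and 7–14 lower after R848; the remaining library of its group was assumed to vary like the other groups. Library size alone turned the sign of these values that were called with one scaling or the other: unstimulated Padi4 KO against WT for Slc2a3 (0.093), Aldoa (0.0049), Pgk1 (0.038) and G6pdx (0.23); Padi4 KO against WT after R848 for Gapdh (0.026) and Pgd (0.035); the response in Padi4 KO for Hk2 (-0.37), Pkm (-0.32) and Tfrc (-0.073); and the response in WT for G6pdx (-0.25) and Taldo1 (-0.13). Including members called with neither, the sign turned for 3 of 35 in the WT response, 4 in the Padi4 KO response, 3 in the difference, 9 before stimulation and 13 after R848. Apart from the scaling itself, the causes were not tested. Same-numbered libraries did not deviate together from their group means (r between -0.020 and 0.020 over 6912 genes), and the replicate number as a block left every count as it was except that 11 in place of 10 members rose in Padi4 KO. Depth limits the low genes most: Pdk1, Egln1, Egln3, Bnip3 and P4ha1 had means of 8.25 to 19.0 counts per library.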
